A study of Mus musculus with 9 samples.

Results

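The genes described here are 9 that mark the surface epithelium of the ovary and the mesothelium, chosen by symbol. Earlier results of these data were known when these genes were chosen. They are the simple epithelial keratins Krt7, Krt8, Krt18 and Krt19 and the mesothelial genes Msln, Muc16, Upk1b, Upk3b and Lrrn4. The count tables list 8 of the 9, among 23420 genes, and Muc16 is in none of them under this symbol or an older one, so that it was not analysed here. All 8 passed the filter on low counts. The ovaries came from wild-type (WT) CD1 mouse embryos on embryonic day 16 and were cultured for 24 hours with recombinant human BMP2 at 50 ng/ml, with estradiol-17β (E2) at 3.67 µM, or with vehicle. All cultures shared a phenol red-free medium with insulin, transferrin, selenium and linoleic acid. Each condition has 3 libraries, with 33360565 to 34320077 read counts in genes with BMP2, 30418674 to 31778161 with E2 and 30860223 to 34253992 with vehicle. Nothing in the labels ties the 3 libraries of a condition to separate animals or cultures. The p-values therefore rest on the spread among these libraries alone, and that spread may be technical.

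The surface of the fetal ovary is covered by an epithelium that derives from the coelomic epithelium, the same lining that gives rise to the mesothelium of the body cavity. Cells of this layer also contribute to the pregranulosa cells that later enclose the oocytes. Its cytoskeleton is built from keratins, which assemble from 1 type I chain (Krt18, Krt19) and 1 type II chain (Krt7, Krt8), with Krt8 and Krt18 the usual partners in simple epithelia. Msln encodes mesothelin, a surface glycoprotein of mesothelial cells that in humans binds MUC16. Upk1b is a tetraspanin and Upk3b a membrane protein of the uroplakin family, best known from the lining of the bladder, and Upk3b and Lrrn4, a leucine-rich repeat membrane protein, are used as mesothelial markers in the mouse. BMP2 signals through SMAD1 and SMAD5, and E2 through oestrogen receptors, which bind DNA as nuclear receptors.

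On the mouse genome build GRCm38 (mm10), Krt8 lies on chromosome 15 from 101996698 to 102004482 on the minus strand and Krt18 from 102028180 to 102032027 on the plus strand, with 23697 bases between them. Krt7 lies on the same chromosome from 101411043 to 101430313, Krt19 on chromosome 11 from 100140810 to 100148665, Msln on chromosome 17 from 25748613 to 25754378, Upk1b on chromosome 16 from 38773184 to 38800328, Upk3b on chromosome 5 from 136038496 to 136046487 and Lrrn4 on chromosome 2 from 132868305 to 132880891. An antisense gene overlaps 1.09% of the exon bases of Krt7 and a long non-coding RNA gene on the other strand 5.16% of those of Krt8, and reads there cannot be told apart without strand. Krt8 was the 1 member with a near copy, the processed pseudogene Krt8-ps, which shares 941 bases at 98.6% identity. Reads that align to both are uncertain, and the level of Krt8 is uncertain to that extent in every library.

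RefSeq promoter sequences on GRCm38.p6 were at hand for 6 of the 9 members (Krt7, Krt8, Krt18, Muc16, Upk3b and Lrrn4). Each runs from 250 bases before to 50 bases after the RefSeq start. That start can lie inside the gene span given above, which comes from GENCODE. The Krt7 window runs from 101412153 to 101412452, in a gene that begins at 101411043. The promoters of the keratin partners Krt8 and Krt18 and of the mesothelial gene Upk3b are shown as examples, picked after values and sequences had been seen. Like them, every member tested was lower with both treatments. The windows are chr15:102004293-102004592 (minus strand), chr15:102027966-102028265 (plus strand) and chr5:136038246-136038545 (plus strand), and capitals mark the hexamer AGGTCA, the core that many nuclear receptors bind.
Krt8: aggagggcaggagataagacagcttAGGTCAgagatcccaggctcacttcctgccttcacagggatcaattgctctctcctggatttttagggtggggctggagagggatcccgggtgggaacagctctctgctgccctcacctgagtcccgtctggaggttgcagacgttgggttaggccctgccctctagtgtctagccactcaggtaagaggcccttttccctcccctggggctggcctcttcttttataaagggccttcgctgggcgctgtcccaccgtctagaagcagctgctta
Krt18: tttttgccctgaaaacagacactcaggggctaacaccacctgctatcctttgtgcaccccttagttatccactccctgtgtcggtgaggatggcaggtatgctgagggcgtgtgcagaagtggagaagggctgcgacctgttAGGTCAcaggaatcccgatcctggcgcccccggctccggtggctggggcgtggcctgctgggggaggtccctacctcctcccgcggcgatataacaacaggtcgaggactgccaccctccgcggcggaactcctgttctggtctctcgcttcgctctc
Upk3b: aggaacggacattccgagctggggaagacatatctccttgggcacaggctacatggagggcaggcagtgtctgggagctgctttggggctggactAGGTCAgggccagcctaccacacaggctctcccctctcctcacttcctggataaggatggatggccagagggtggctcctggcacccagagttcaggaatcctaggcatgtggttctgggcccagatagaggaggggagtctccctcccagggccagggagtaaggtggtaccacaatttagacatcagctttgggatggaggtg
Searched on both strands, AGGTCA was found in 5 of the 6 members' promoters (once each in Krt7, Krt8, Krt18, Upk3b and Lrrn4, all on the gene's own strand) and in 16.3% of 32851 promoter windows. Its first base lay at position -225 from the start in Krt8, -108 in Krt18, -155 in Upk3b, -8 in Lrrn4 and 16 in Krt7. This motif was chosen after the sequences had been read. Among promoters of genes called lower with E2 (the test is given with the E2 results), 10.9% held it, against 13.5% for genes called higher and 13.6% for genes not called. The full oestrogen response element palindrome was in none of the 6 and in 0.07% of all windows. The SP1 box GGGCGG was found in the Krt7 promoter, at 4 positions, and in 35.7% of all windows. The GC box GGCGCC, to which SMAD1 and SMAD5 can bind, was in the Krt18 promoter and in 11.9% of all windows. TATAAA was in the Krt8 promoter, at overlapping positions on both strands, and in 13.6% of all windows, and the AP-1 site TGANTCA was in none of the 6 and in 7.81% of all windows. All windows include those of genes not tested. Among promoters of genes called lower with E2, 63% held the SP1 box, 20.4% the GC box, 8.86% TATAAA and 6.19% the AP-1 site. For genes called higher the shares were 58.5%, 21.8%, 7.42% and 5.29%, and for genes not called 56.8%, 18.8%, 7.74% and 5.43%. A match is a run of letters, not a shown binding site.

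Krt19, Krt8 and Krt18 were the most abundant members and Msln and Upk1b the least. Levels are given as CPM, read counts scaled to a common library size with TMM factors, and between genes as CPM per kilobase of exon (RPKM). In RPKM, Krt19 stood at 80.1 ± 2.90 with BMP2, 67.9 ± 1.82 with E2 and 92.7 ± 3.37 with vehicle (mean ± SD, n = 3 each). Krt8 stood at 77.3 ± 1.44 RPKM with BMP2, 58.1 ± 0.968 with E2 and 89.8 ± 2.94 with vehicle. The levels of Krt19 and Krt8 were within their spread of each other with BMP2 and vehicle, and apart with E2, where the Krt8 libraries all lay below those of Krt19. With the longest transcript as the length in place of all exon bases, Krt19 stood at 109 RPKM with vehicle, clear of Krt8. Krt18 followed with 47.4 ± 0.225 RPKM with BMP2, 28.3 ± 1.29 with E2 and 54.9 ± 2.09 with vehicle. Upk3b was next, at 29.0 ± 0.420 RPKM with BMP2, 23.9 ± 0.333 with E2 and 32.3 ± 0.613 with vehicle. Krt7 (8.48, 7.11 and 10.1 RPKM in the same order of conditions), Lrrn4 (3.61, 3.13 and 4.36), Msln (1.38, 1.06 and 2.05) and Upk1b (1.02, 0.825 and 1.41) came below. The order of these mean levels was the same in the 3 conditions, and apart from Krt19 and Krt8 no neighbours in it overlapped in their libraries in any condition. Krt7 rests on exon bases of 5 transcripts, and with its longest transcript as the length it stood at 17.4 RPKM with vehicle.

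In the comparison of E2 with vehicle, which addresses the response to oestrogen, all 8 members were lower. Krt18 stood at 51.55% and Msln at 51.63% of their vehicle levels, Upk1b at 58.5% and Krt8 at 64.7%, while Krt7, Lrrn4, Krt19 and Upk3b stood at 70.3% to 74.1%. The median log2 fold change of the 8 was -0.57, beside -0.0026 over all 16360 genes tested. In the edgeR quasi-likelihood test, with p-values adjusted over all genes by the Benjamini-Hochberg method, 8 of 8 fell at an adjusted p under 0.05, against 16.5% of all genes called lower. The libraries of the groups did not overlap for any of the 8, as was so, with E2 below vehicle, for 20.9% of all genes. In bulk RNA of ovaries, fewer cells of a type and less RNA per cell cannot be told apart. Against a change of 1.2-fold (edgeR's glmTreat) 8 of 8 were lower, against 2.11% of all genes. Because earlier results were known when the members were chosen, the shares of all genes serve as description only.

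**Figure D1:**
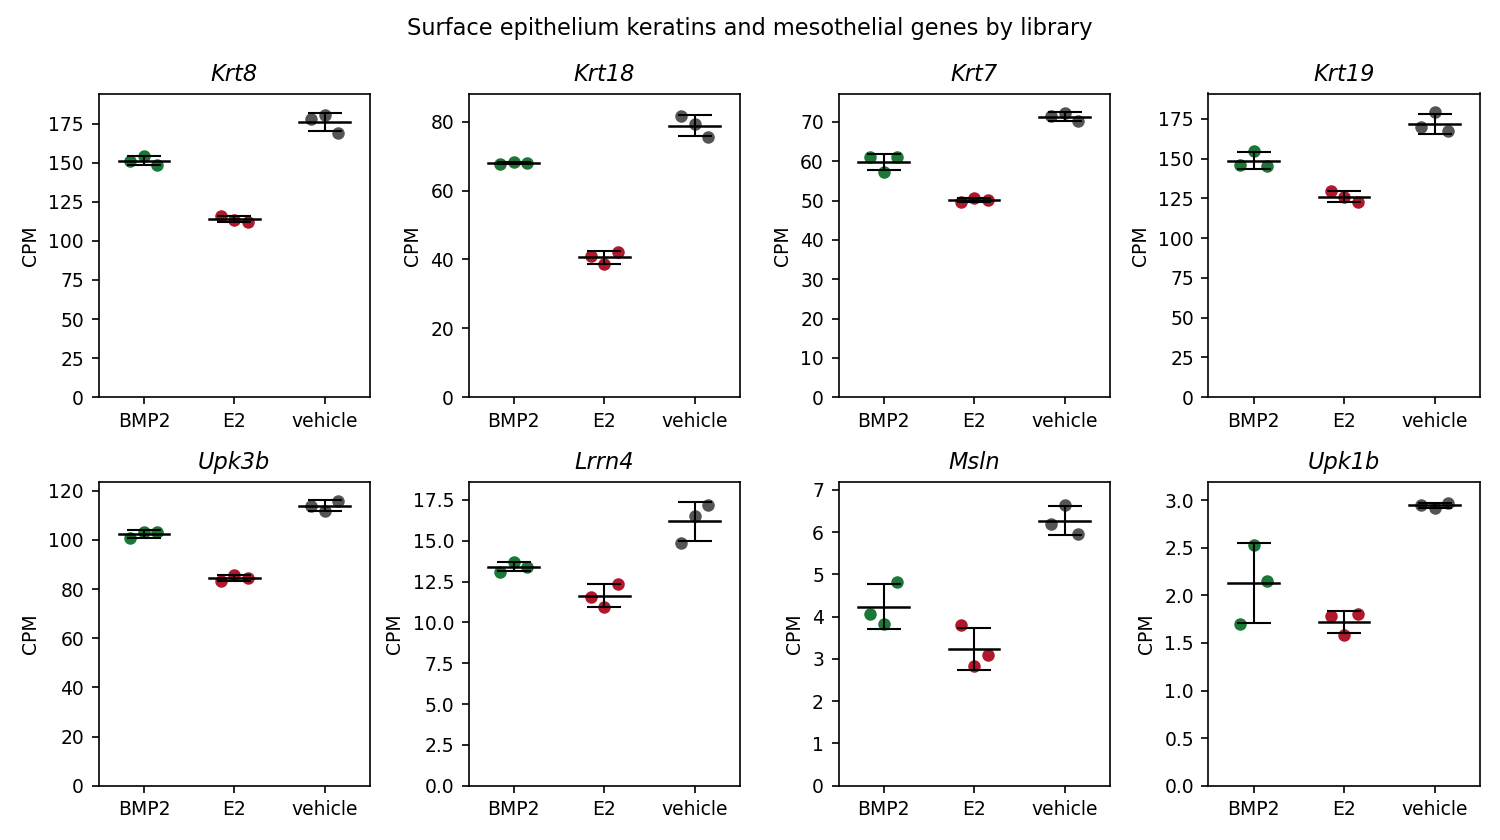
TMM-normalized CPM (y axis, from 0) of the 8 members in each library with BMP2, E2 and vehicle; points are libraries, lines the mean and bars the SD of 3 libraries. For every gene the E2 libraries and the BMP2 libraries lie below the vehicle libraries, and Krt18 shows 40.7 CPM with E2 against 78.9 CPM with vehicle.

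Of the type I keratins, Krt18 had 41.1, 38.6 and 42.3 CPM in the E2 libraries, against 81.6, 79.4 and 75.6 CPM in the vehicle libraries. All 3 E2 libraries lay far under the lowest vehicle library, and the log2 fold change was -0.96 ± 0.036 (SE, adjusted p = 2.4e-54), the 75th lowest of 16360 genes. Krt19 had 129, 126 and 123 CPM with E2, against 170, 179 and 167 CPM with vehicle. Its groups did not overlap either, but the gap and the change were smaller, with a log2 fold change of -0.45 ± 0.025 (adjusted p = 3.0e-33).

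Of the type II keratins, Krt8 had 116, 113 and 112 CPM in the E2 libraries, against 178, 180 and 169 CPM in the vehicle libraries. The libraries of each group were close together and the groups did not meet, with a log2 fold change of -0.63 ± 0.025 (adjusted p = 2.4e-51). Krt7 had 49.6, 50.7 and 50.1 CPM with E2, against 71.4, 72.4 and 70.2 CPM with vehicle. The log2 fold change was -0.51 ± 0.035 (adjusted p = 3.6e-28), smaller in size than that of Krt8.

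Among the mesothelial genes, Upk3b had 83.2, 85.5 and 84.5 CPM with E2, against 114, 112 and 116 CPM with vehicle. The groups were apart, and the log2 fold change of -0.43 ± 0.028 (adjusted p = 1.0e-29) was the smallest of the 8. Lrrn4 had 11.58, 10.95 and 12.35 CPM in the E2 libraries, against 14.9, 16.5 and 17.2 CPM in the vehicle libraries. Its log2 fold change was -0.48 ± 0.068 (adjusted p = 2.0e-09). Msln, at lower abundance, had 3.79, 2.83 and 3.10 CPM with E2, against 6.20, 6.65 and 5.96 CPM with vehicle. No E2 library came near a vehicle library, and the log2 fold change was -0.95 ± 0.12 (adjusted p = 3.1e-12), as large as that of Krt18 but with a wider error. Upk1b rested on 54, 50 and 57 read counts in the E2 libraries, against 101, 90 and 96 in the vehicle libraries, and its log2 fold change was -0.77 ± 0.16 (adjusted p = 3.8e-05).

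The response to the ligand BMP2 is read against the same vehicle libraries. With BMP2 all 8 members were lower as well, by less. The highly expressed Krt7, Krt8, Krt18, Krt19 and Upk3b stood at 83.9% to 89.9% of their vehicle levels, Lrrn4 at 82.9%, Upk1b at 72.2% and Msln at 67.7%. The median log2 fold change of the 8 was -0.24, beside -0.0015 over all genes. In the same fit 8 of 8 fell, against 6.85% of all genes called lower, and in all 8 the BMP2 libraries lay below the vehicle libraries, as they did for 14.0% of all genes. Against a change of 1.2-fold, 0 of 8 passed in edgeR's glmTreat, where 0.165% of all genes were lower, while in the test against no change all 8 had an unadjusted p under 0.05 and DESeq2 called 7.

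Krt8 had 151, 154 and 149 CPM in the BMP2 libraries, against 178, 180 and 169 CPM in the vehicle libraries. The highest BMP2 library stayed under the lowest vehicle library, with a log2 fold change of -0.22 ± 0.024 (adjusted p = 1.9e-13). Krt7 had 61.1, 57.3 and 61.0 CPM with BMP2, against 71.4, 72.4 and 70.2 CPM with vehicle (log2 fold change -0.25 ± 0.033, adjusted p = 3.9e-10). Krt18 had 67.8, 68.4 and 68.1 CPM with BMP2, against 81.6, 79.4 and 75.6 CPM with vehicle. The BMP2 libraries were within 1 CPM of each other, and the log2 fold change was -0.21 ± 0.032 (adjusted p = 8.3e-08), like that of its partner Krt8. Krt19 had 146, 155 and 145 CPM with BMP2, against 170, 179 and 167 CPM with vehicle (log2 fold change -0.21 ± 0.025, adjusted p = 1.0e-11). The 4 keratins thus had log2 fold changes between -0.21 and -0.25.

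Upk3b had 101, 103 and 103 CPM in the BMP2 libraries, against 114, 112 and 116 CPM in the vehicle libraries, with a log2 fold change of -0.15 ± 0.027 (adjusted p = 4.0e-06), the smallest of the 8. Lrrn4 had 13.1, 13.7 and 13.4 CPM with BMP2, against 14.9, 16.5 and 17.2 CPM with vehicle (log2 fold change -0.27 ± 0.066, adjusted p = 0.0012). Msln had 4.07, 3.82 and 4.82 CPM with BMP2, against 6.20, 6.65 and 5.96 CPM with vehicle. Its log2 fold change of -0.56 ± 0.11 (adjusted p = 2.4e-05) was the lowest of the 8, on 128 to 166 counts a library with BMP2. Upk1b had 58, 85 and 74 counts with BMP2, against 101, 90 and 96 with vehicle, and its log2 fold change was -0.47 ± 0.15 (adjusted p = 0.0232). This call was not robust. The SD of Upk1b was 19.7% of the mean with BMP2 and 0.859% with vehicle, where counting error alone gives 11.8% and 10.2%. The call was lost with DESeq2 (adjusted p = 0.119), without BMP2 replicate 1 (0.225) or 3 (0.0594), and without vehicle replicate 1 (0.0663) or 3 (0.0539).

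**Figure D2:**
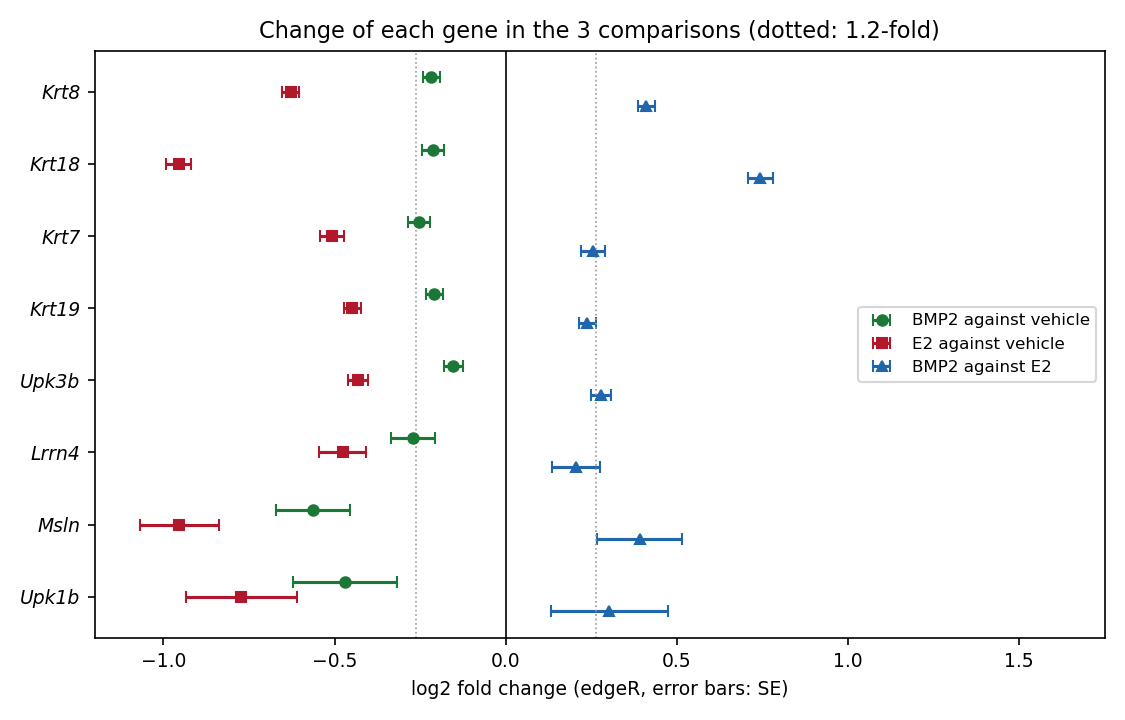
Log2 fold changes (x axis, edgeR, error bars are SE) of the 8 members (y axis) for BMP2 against vehicle, E2 against vehicle and BMP2 against E2; dotted lines mark 1.2-fold. Both treatments lie left of 0 for every gene, and the difference between them passed the test for every gene but Upk1b, with Krt18 at -0.96 with E2 and -0.21 with BMP2.

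Set directly against each other, the treatments differed for 7 of the 8. The fold changes here are BMP2 over E2, and 7 of 8 were higher with BMP2 in edgeR's test, against 14.1% of all genes called higher and 14.0% called lower. In these 7 the BMP2 libraries lay above the E2 libraries, as they did for 19.8% of all genes. Krt18 showed the widest gap, at 68.1 ± 0.324 CPM with BMP2 and 40.7 ± 1.85 CPM with E2 (mean ± SD, n = 3 each), a 1.67-fold difference with a log2 fold change of 0.74 ± 0.036 (SE) and an adjusted p of 7.4e-42. Krt8 was 1.33-fold higher (log2 fold change 0.41 ± 0.025, adjusted p = 3.5e-32), and these partners were the 2 members that passed against a change of 1.2-fold, where 1.81% of all genes were higher. Krt7, Krt19 and Upk3b were 1.19-fold, 1.18-fold and 1.21-fold higher (adjusted p = 6.1e-10, 2.2e-14 and 4.8e-16 in edgeR). Msln (log2 fold change 0.39 ± 0.12, adjusted p = 0.0096) and Lrrn4 (0.21 ± 0.070, adjusted p = 0.0173) passed, but not with DESeq2 (adjusted p = 0.0531 and 0.0729). Msln was also lost without BMP2 replicate 3 (adjusted p = 0.128) or E2 replicate 2 (0.102), and Lrrn4 without BMP2 replicate 2 (0.0641) or E2 replicate 2 (0.125). Upk1b had overlapping libraries and did not pass (log2 fold change 0.30 ± 0.17, adjusted p = 0.188), which does not show that the treatments act alike on it.

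The balance between keratin types was examined because type I and type II chains pair in the filament. The summed level per kilobase of Krt7 and Krt8 over that of Krt18 and Krt19 was 0.672 ± 0.0098 with BMP2, 0.678 ± 0.0086 with E2 and 0.677 ± 0.0037 with vehicle (mean ± SD, n = 3 each). The conditions overlapped, and exact two-sided permutation tests over libraries gave p = 0.5 for BMP2 against vehicle, p = 1 for E2 against vehicle and p = 0.4 for BMP2 against E2. The ratio of Krt8 to Krt18 alone was 2.07, 2.16 and 1.94 in the E2 libraries, against 1.60, 1.67 and 1.64 in the vehicle libraries. All E2 libraries were above all others. With BMP2 the ratio was 1.64, 1.65 and 1.60, within the vehicle range. For the ratio of Krt8 to Krt18, the exact permutation p was 0.1 for E2 against vehicle and for BMP2 against E2, the smallest that 3 against 3 libraries can give, and 0.8 for BMP2 against vehicle. Adjusted over the 6 tests of both ratios, the lowest value was 0.3 in these permutation tests. With 3 against 3 libraries no ratio could have fallen under 0.05, so that these tests cannot decide whether a ratio changed.

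**Figure D3:**
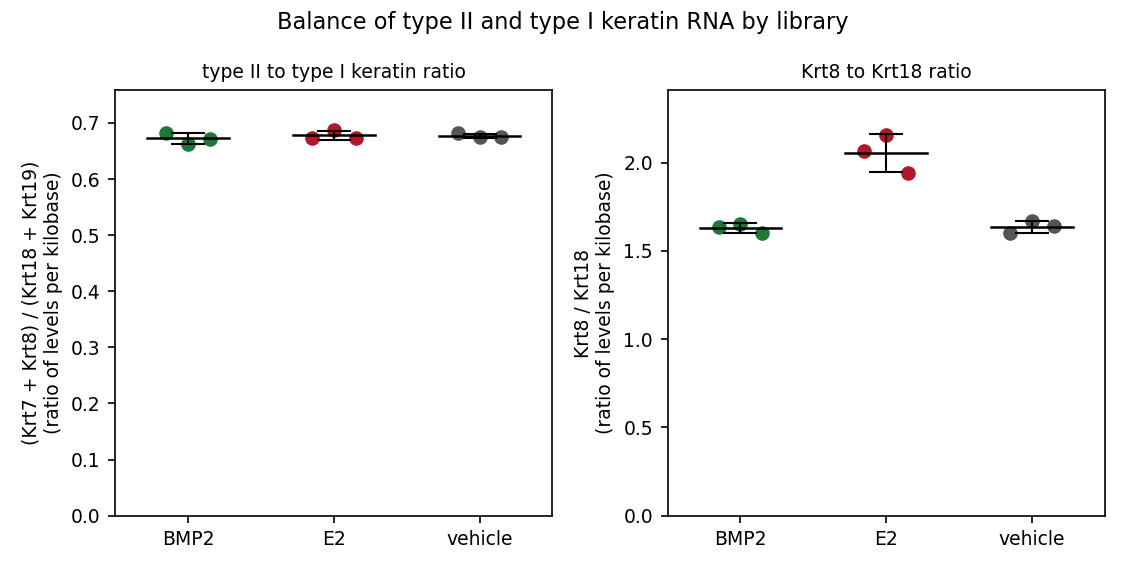
Ratios of keratin levels per kilobase (y axes, from 0) in each library with BMP2, E2 and vehicle; points are libraries, lines the mean and bars the SD of 3. The ratio of type II to type I keratins stays at 0.672 to 0.678 on average, while Krt8 over Krt18 is 2.06 with E2 against 1.64 with vehicle.

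Other genes of the surface epithelium and mesothelium, 20 in a list that leaves out the members, were lower in part. With E2, 9 of 17 tested fell, 4 rose and 4 did not pass, against 16.5% called lower and 15.8% called higher among all genes, and the median log2 fold change of the list was -0.19. Nkain4 (log2 fold change -0.53 ± 0.091) and Gpm6a (-0.49 ± 0.059), membrane proteins found in mesothelium, were the lowest of the list, and neither passed with BMP2 (-0.19 and -0.074, adjusted p = 0.143 and 0.435 in edgeR). Aldh1a2, an enzyme that makes retinoic acid, went the other way, at 262 ± 2.38 CPM with E2 against 186 ± 1.87 CPM with vehicle, as did Pdpn, which encodes the membrane glycoprotein podoplanin (log2 fold change 0.19 ± 0.033). With BMP2 the log2 fold changes of Aldh1a2 and Pdpn were -0.069 and -0.15 (adjusted p = 0.0211 and 4.71e-04 in edgeR). With BMP2, 10 of 17 fell and 7 did not pass in edgeR, against 6.85% called lower and 6.84% called higher among all genes, and the median was -0.11. Without vehicle replicate 1 the number that fell was 6. Efemp1, an extracellular matrix protein gene, and Pkhd1l1 were the lowest of the called genes (log2 fold changes -0.26 ± 0.078 and -0.20 ± 0.047), and the call of Efemp1 was lost with DESeq2 (adjusted p = 0.0678), without BMP2 replicate 2 (0.103) and without vehicle replicate 1 (0.0846). Wt1, a transcription factor of the coelomic epithelium that ovarian stroma and pregranulosa cells also express, was chosen after its values were seen. It did not pass with BMP2 (log2 fold change -0.046, adjusted p = 0.102) and rose with E2 (0.078, adjusted p = 7.0e-04).

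Keratins outside the members were scarce, with a summed level of 36.8 to 40.9 CPM with BMP2, 32.7 to 34.2 CPM with E2 and 42.2 to 44.7 CPM with vehicle for 14 genes. Of 9 tested, 3 fell and 1 rose with E2 (median log2 fold change -0.28), and 2 fell with BMP2 (median -0.062). Among all genes, 16.5% were called lower and 15.8% higher with E2, and 6.85% and 6.84% with BMP2. Krt14, a keratin of basal epithelial cells, stood at 3.97 ± 0.260 CPM with E2 and 7.28 ± 0.0529 CPM with BMP2, against 9.10 ± 0.391 CPM with vehicle, and its log2 fold change was -1.19 ± 0.098 with E2 and -0.32 ± 0.086 with BMP2. Krt17 fell too (-0.90 ± 0.11 with E2 and -0.50 ± 0.10 with BMP2). Krt23 rose with E2 at very low abundance, to 0.800 ± 0.220 CPM against 0.338 ± 0.0569 CPM with vehicle, and is not tested where a mean of at least 1 CPM is required. Of the other uroplakins and membrane mucins 4 of 9 could be tested, and 0 passed against vehicle with either treatment in edgeR or DESeq2. At an unadjusted p under 0.05 edgeR counted 2 with BMP2 and 0 with E2. With BMP2, 1 was called lower without BMP2 replicate 1 or vehicle replicate 1, and 1 higher without vehicle replicate 2.

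Ppl encodes periplakin, which links keratins to cell junctions. It stood at 5.50 ± 0.850 CPM with BMP2 and 5.36 ± 0.432 CPM with E2, against 8.46 ± 0.391 CPM with vehicle (log2 fold changes -0.62 ± 0.094 and -0.66 ± 0.097). The list of 10 holds cytolinker and scaffold genes and also Vim, Des, Nes and Synm, which encode other intermediate filament proteins. Of the 10, 4 fell and 2 rose with E2 (median -0.064), and 2 fell and 2 rose with BMP2 (median -0.041). Without vehicle replicate 2 the number that fell with E2 was 2, and without any 1 of the BMP2 libraries, or of vehicle replicates 2 and 3, the number that rose with BMP2 was 1. Dst, of the same list, rose with both treatments. It stood at 593 ± 10.1 CPM with BMP2 and 665 ± 10.3 CPM with E2, against 565 ± 7.05 CPM with vehicle. Its log2 fold changes were 0.071 and 0.24 (adjusted p = 0.0021 and 1.2e-24 in edgeR). Leaving out BMP2 replicate 1 raised the edgeR value for its BMP2 rise to 0.0594, which did not pass. Among 20 genes of epithelial junctions and desmosomes, 8 fell and 2 rose with E2 (median -0.105), and 2 fell and 2 rose with BMP2 (median -0.079). Beside both lists, 16.5% of all genes were called lower and 15.8% higher with E2, and 6.85% and 6.84% with BMP2. Cldn4, a tight junction claudin, was 2.42-fold lower with E2 (2.02 ± 0.0918 CPM with E2 against 4.89 ± 0.313 CPM with vehicle) and 1.27-fold lower with BMP2, a call that was lost with DESeq2 (adjusted p = 0.154) and without BMP2 replicate 2 (0.147) or 3 (0.15) or vehicle replicate 1 (0.0641) or 2 (0.149). Dsp, which encodes the desmosomal protein desmoplakin, fell with both treatments (log2 fold change -0.33 with BMP2, adjusted p = 1.2e-05, and -0.57 with E2, adjusted p = 3.4e-14). Dsc2, a desmosomal cadherin, rose with E2 (0.48 ± 0.034) and did not pass with BMP2 (-0.039, adjusted p = 0.54 in edgeR). Esrp1, which controls splicing in epithelial cells, rose with E2 (0.40 ± 0.039) and with BMP2 (0.31 ± 0.039). The number of junction genes that fell with BMP2 was 1 without BMP2 replicate 2 or vehicle replicate 2, and 4 without BMP2 replicate 1. With E2 the number that fell was 6 in DESeq2 and 6 without E2 replicate 2.

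**Figure D4:**
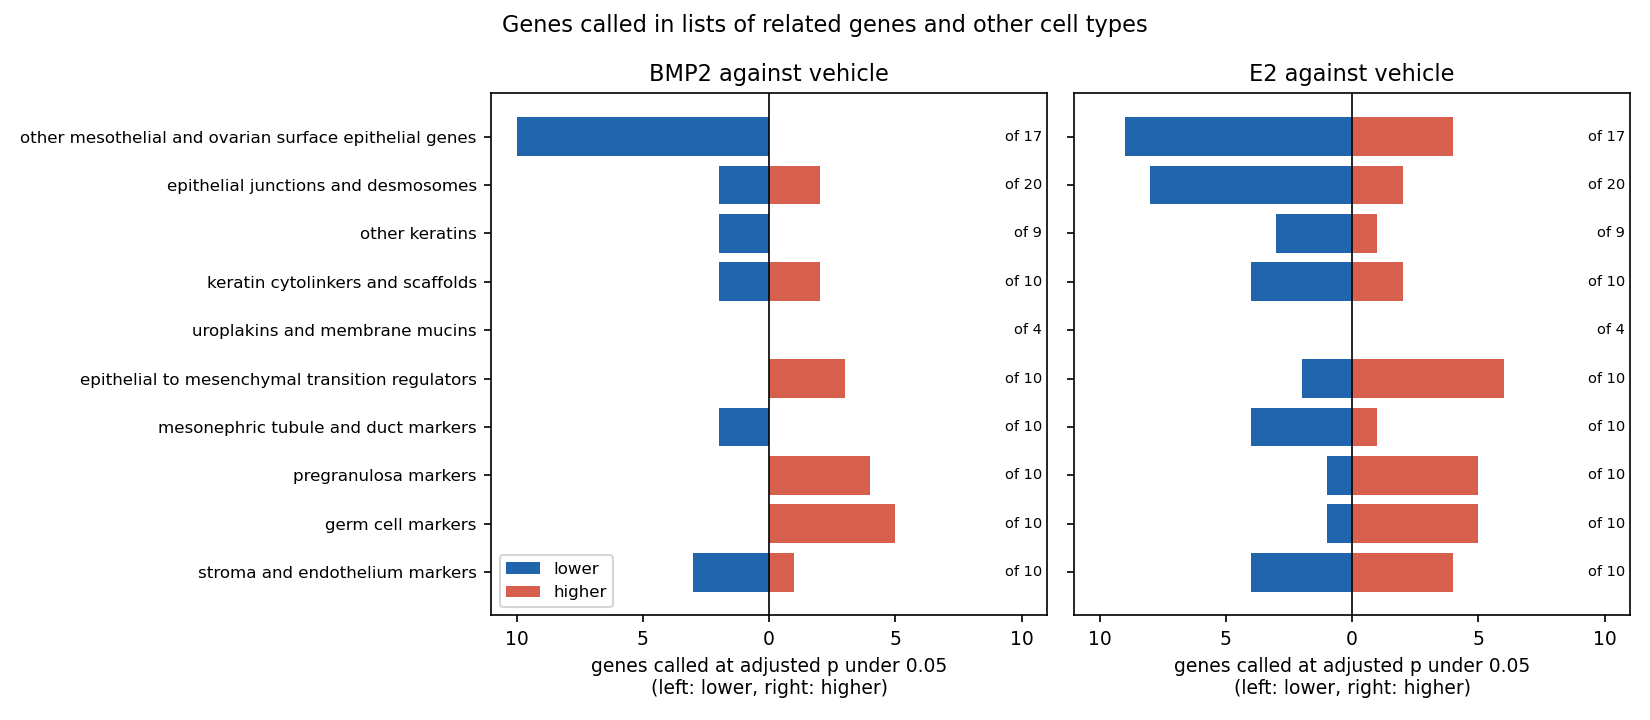
Number of genes called at an adjusted p under 0.05 (x axis, lower to the left and higher to the right) in each of 10 lists (y axis) for BMP2 against vehicle and E2 against vehicle, with the number tested at the right. Of the other mesothelial and surface epithelial genes, 10 of 17 are lower with BMP2 and 9 of 17 with E2. Of all genes, 6.85% and 16.5% are called lower.

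Of 10 tested genes of the transition from epithelium to mesenchyme, 6 rose and 2 fell with E2 (median log2 fold change 0.14). With BMP2, 3 rose in edgeR (median 0.025). Among all genes, 16.5% were called lower and 15.8% higher with E2, and 6.85% and 6.84% with BMP2. The 10 are not all drivers. Cdh2 and Fn1, which rose with E2, are products and not regulators, and mesenchymal cells are not their only source. Ovol1 and Grhl2 oppose the transition. Snai2, a repressor of epithelial genes, reached 49.3 ± 1.30 CPM with E2 against 30.3 ± 1.98 CPM with vehicle (log2 fold change 0.70 ± 0.043, adjusted p = 6.9e-32). Twist2 was also higher with E2 (0.72 ± 0.20), while Twist1 and Snai1 were lower (-0.48 ± 0.11 and -0.46 ± 0.15), and the Snai1 call was lost with DESeq2 (adjusted p = 0.0625) and without E2 replicate 1 (0.0525), E2 replicate 2 (0.112) or vehicle replicate 2 (0.0691). Ovol1, a transcription factor of epithelia and germ cells, rose with both treatments (0.51 with BMP2 and 0.59 with E2), as did Zeb1 (0.11 with BMP2 and 0.22 with E2). Snai2 did not pass with BMP2 (-0.11, adjusted p = 0.0961 in edgeR).

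Markers of other cells moved beside the members. Mesonephric tubule and duct genes had a summed level of 230 to 239 CPM with BMP2, 214 to 228 CPM with E2 and 235 to 241 CPM with vehicle. Emx2 (127, 117 and 127 CPM in the same order of conditions) and Calb1 (57.9, 62.0 and 56.1 CPM) took the largest shares of this sum. Other markers of the list were scarce, such as Pax2 (0.343, 0.312 and 0.266 CPM) and Cldn8 (0.244, 0.343 and 0.310 CPM). None of the 12 was at 0 in all libraries, but Tmem213 had 1 count and Lhx1 74 counts over all 9 libraries together. Neither of these passed the filter on low counts. Of 10 tested, 4 fell and 1 rose with E2, and 2 fell with BMP2 in edgeR, against 1 that fell in DESeq2. Of all genes, 16.5% were called lower and 15.8% higher with E2, and 6.85% and 6.84% with BMP2. Gata3, a transcription factor of the mesonephric duct, stood at 11.3 ± 0.615 CPM with BMP2 and 7.60 ± 0.370 CPM with E2, against 15.1 ± 0.239 CPM with vehicle. Cdh16, a cadherin of these tubules, stood at 0.472 ± 0.169 CPM with BMP2 and 0.943 ± 0.219 CPM with E2, against 1.18 ± 0.148 CPM with vehicle, and did not pass with E2 (adjusted p = 0.338 in edgeR). The part of mesonephric cells in the changes of the keratins was not tested.

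Pregranulosa markers summed to 2229 to 2257 CPM with BMP2, 2116 to 2136 CPM with E2 and 2188 to 2221 CPM with vehicle, and 5 of 10 rose and 1 fell with E2. The one that fell was Kitl, which encodes the ligand of the Kit receptor and takes the largest share of this sum, at 776 ± 4.90 CPM with E2 and 1015.7 ± 7.51 CPM with BMP2, against 978 ± 29.2 CPM with vehicle. With BMP2 4 rose, and 2 without BMP2 replicate 2, BMP2 replicate 3 or vehicle replicate 1. Germ cell markers summed to 1868 to 1932 CPM with BMP2, 1888 to 1906 CPM with E2 and 1783 to 1894 CPM with vehicle, and 5 of 10 rose with each treatment, while 1 fell with E2. Of 10 stroma and endothelium markers (1110 to 1117 CPM with BMP2, 1054 to 1063 CPM with E2 and 1153 to 1182 CPM with vehicle), 4 rose and 4 fell with E2, and 1 rose and 3 fell with BMP2. The BMP2 number that fell was 1 without BMP2 replicate 1, BMP2 replicate 3 or vehicle replicate 2, and the number that rose was 0 without vehicle replicate 1. Beside these counts, 16.5% of all genes were called lower and 15.8% higher with E2, and 6.85% and 6.84% with BMP2. None of the pregranulosa, germ cell, stroma and endothelium markers was at 0 in all libraries. Their part in the changes of the members was not tested.

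The genes whose level followed the members most closely were sought among 11932 other genes with a mean of at least 5 CPM, by Pearson's r with the mean z-score of the 8 members over 9 libraries. Among the closest were Gata3 (r = 0.993), Ugt8a (0.993), which encodes an enzyme of galactolipid synthesis, Hs6st1 (0.988), which modifies heparan sulphate, and Creb3l1 (0.987), a transcription factor gene. Ugt8a stood at 42.1 ± 0.360 CPM with BMP2 and 36.3 ± 1.28 CPM with E2, against 47.3 ± 1.198 CPM with vehicle. The 9 libraries fall into 3 conditions, so that r mostly measures the differences between the conditions, and no p is given.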

How the data were processed

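Libraries were made from total RNA with an Illumina TruSeq RNA kit, per the labels' protocols. TopHat2, HTSeq, DESeq2 and mm10 appear in the submitters' processing notes. Which annotation was counted, and with what strand setting, is not given in the sources used here. The authors deposited raw read counts per gene, 1 table per library, with 23420 genes. Beside them, 5 summary rows of reads given to no gene held 38.2% to 39.7% of a library and were left out.

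Conditions were taken from the title prefixes B2, E2 and C, read as BMP2, E2 and vehicle because the protocol names these 3. The test was edgeR's robust quasi-likelihood F test (version 4.0.16, R 4.3.3). After filterByExpr (minimum count 10, minimum total 15) 16360 genes remained. All 9 libraries, scaled by TMM factors, shared 1 model with 1 mean for each condition, which leaves 6 residual degrees of freedom. The Benjamini-Hochberg adjustment covered all 16360. The SE of a log2 fold change is its size divided by the square root of F. Total counts of 30418674 to 34320077 keep counting error at 1.32% to 2.81% for keratins and at 7.01% to 13.7% for Msln and Upk1b, and counting error is the least error possible. The fit was tested on simulated data.

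RPKM values are TMM-normalized CPM per kilobase of GENCODE vM21 exon. Near copies were sought with blastn 2.17.0 (at least 95% identity over 200 bases). Members and lists were chosen with earlier results of these data known, and no list was given a set test. The rule for named genes takes all members, from each list the 2 highest and 2 lowest called genes against vehicle, and the 5 genes most like the members, of which 1 is not reported here. Of the list genes the text names only a part, picked after values were seen, and Wt1 lies outside the rule. Alternatives were DESeq2 1.42.0, median-ratio size factors, other filters, only the conditions compared, a replicate block, each library left out in turn, a threshold of 0.01 and a test against 1.2-fold.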

Additional observations from a re-analysis of the deposited data

How the results depend on the processing

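The fall of all 8 members with E2 kept its direction and its call under every alternative run, including DESeq2 and the test against 1.2-fold, and the log2 fold change of Krt18 lay between -0.98 and -0.92. With BMP2 the direction held in every alternative, and 7 to 8 members were called with 1 library left out, Upk1b being the one lost. In the test against 1.2-fold 0 members were called lower with BMP2, and 2 were called higher for BMP2 against E2, because that test asks for a larger change. Over all genes, the main edgeR fit called 1120 lower and 1119 higher with BMP2. It called 2701 and 2577 with E2, and 2297 and 2310 for BMP2 against E2. DESeq2 called fewer with BMP2, 687 lower and 727 higher, and the threshold of 0.01 left 656 and 662. The test against 1.2-fold left 27 lower and 43 higher with BMP2, 346 and 531 with E2, and 488 and 296 for BMP2 against E2. The ratio of Krt8 to Krt18 alone, 1.63 with BMP2, 2.06 with E2 and 1.64 with vehicle, differs in level from that of all 4 keratins by its construction. With 1 library left out, 5 to 7 members were higher for BMP2 against E2.

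Whether replicate numbers pair the libraries is not given by the labels and was not settled here. Same-numbered libraries of different conditions deviated from their means with correlations of -0.019 to 0.069, and 6 of 9 libraries correlated best with one of their own number. With the replicate block, 8 members were lower with BMP2, 8 lower with E2 and 7 higher for BMP2 against E2. Over all genes the block gave 1260 lower and 1252 higher with BMP2, against 1120 and 1119 without it. Depth limits Upk1b, with 50 to 101 counts a library, and Msln.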
